A study of Mus musculus with 9 samples.

Results

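The subject is how the H3K27ac interactions of untreated mouse embryonic stem cells lie relative to the CTCF interactions of the same untreated line. The comparison takes the 2 H3K27ac and the 2 CTCF libraries without the auxin IAA, 4 of the 9 libraries in the series. All 9 come from E14 cells whose CTCF carries AID, the degron that auxin activates, grown without serum in medium with leukemia inhibitory factor, 1 μM PD0325901 and 3 μM CHIR99021, so the libraries without IAA also carry the tag. The labels do not say whether the line is 1 clone. In MNase HiChIP, chromatin is cut with micrococcal nuclease, ends that lie close together are ligated, and the ligated DNA is enriched with an antibody. The deposited lists pool the replicates of each antibody, so replicate spread is unknown and no test over samples was possible. Intervals are at 95%: Wilson intervals for shares, Greenland-Robins intervals for matched ratios and intervals from binomial ranks for medians. All cover counting error only, since bins and bin pairs are not replicates.

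H3K27ac, acetylation of lysine 27 on histone H3, marks promoters and enhancers in use, and interactions enriched for it join such elements. CTCF is a zinc-finger protein that binds a long, directional DNA motif. The cohesin ring extrudes chromatin loops and is halted at bound CTCF, mostly where 2 motifs point towards each other. The domains bounded in this way are known to make contacts within them more frequent than contacts across their borders, and in embryonic stem cells many pluripotency genes lie within such domains.

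The H3K27ac list held 36274 interactions between 2 kb bins, called at a q-value under 0.05 with a peak at 1 end at least. The CTCF list held 49630 interactions between 1 kb bins, with peaks at both ends. Their model totals were 12551236 and 2839756 contacts, and listed pairs took 4.94% and 33.7% of them. The median contact count was 13 and 14, and the median span was 24 kb and 149 kb. A bin pair missing from a list was therefore not called at this depth, and is not shown to lack contacts. On 2 kb bins the CTCF list came to 43563 bin pairs.

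The motif core searched at the anchors, on both strands, was CC, any 3 bases, AG, any 1 base and then GGGC, and 7.93% of the genome's 2 kb bins held it. The windows below are from GRCm38, each written 5′ to 3′ on the strand of the match, with the 12 bases of the core in capitals. They are shown because the results turn on which way the core points at a bin. The first 4 come from bins with many partners in each of the lists, the next from a bin with many partners in the CTCF list alone, and the last 4 from the 2 kb bins at the ends of the CTCF pairs with the highest counts.
chr2:152831180-152831209, reverse strand, Bcl2l1 start bin: ccctcgagcCCTGCAGGGGGCtccagaagg
chr15:77336832-77336861, forward strand, intergenic: tcttcttttCCTCTAGGGGGCgcgcgcaag
chr15:77336621-77336650, reverse strand, same bin: agagagccgCCTCCAGGGGGCgcgatggag
chr2:18027534-18027563, forward strand, exonic bin of A930004D18Rik: tccctggcaCCTGCAGGGGGCgctggtgcc
chr19:44582869-44582898, reverse strand, intergenic: ctcaggctcCCCCAAGTGGGCagtgtgggt
chr15:101988912-101988941, reverse strand, left end of a CTCF pair: ctgcagaggCCAGAAGAGGGCgttatggag
chr15:102065813-102065842, reverse strand, right end of the same pair: gctagaaggCCACCAGGGGGCagagaaggg
chr4:155095421-155095450, forward strand, left end of a CTCF pair: acagaatgtCCACCAGGGGGCagtcaagac
chr4:155248248-155248277, reverse strand, 2 kb bin of the right end but outside its 1 kb anchor, Faap20 start bin: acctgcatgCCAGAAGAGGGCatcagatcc

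About 1 anchor bin in 4 served both kinds of interaction. Of 27304 H3K27ac anchor bins, 6942 were also CTCF anchor bins, which is 25.4% (24.9 to 25.9) of the H3K27ac bins and 23.2% (22.7 to 23.7) of the 29959 CTCF bins. Over the genome, 2.26% of 2 kb bins were CTCF anchors and 2.06% were H3K27ac anchors. The share of H3K27ac bins ranged from 18.8% on the X chromosome to 30.2% on chromosome 7, over 20 chromosomes. It was 40.5% when a CTCF anchor in a neighbouring bin also counted. H3K27ac bins flagged as peaks were CTCF anchors more often (27.3%, 26.7 to 27.9) than bins without the flag (14.9%, 13.8 to 16).

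The overlap was most frequent at promoters. A protein-coding start site lay in 42.1% (41.0 to 43.3) of the bins in both lists, in 18.4% (17.8 to 18.9) of the H3K27ac-only bins and in 10.7% (10.3 to 11.1) of the CTCF-only bins, against 2.03% of the genome's bins. Counting start sites in neighbouring bins too, these shares were 54.0%, 33.6% and 18.8%. Read from the other side, 43.9% (42.7 to 45.1) of the H3K27ac bins with a start site were CTCF anchors, and 19.5% (18.9 to 20) of those without one. Among peak bins with a start site, the share rose with H3K27ac coverage, from 28.4% (25.1 to 32.0) in the lowest coverage quartile to 49.2% (47.3 to 51.1) in the highest. Among peak bins without a start site it did not follow coverage and lay between 19.4% and 21.6% in the 4 quartiles. Bins with more H3K27ac partners were also CTCF anchors more often, 20.5% (19.8 to 21.2) with 1 partner and 38% (35.8 to 40.3) with 8 or more.

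**Figure D1:**
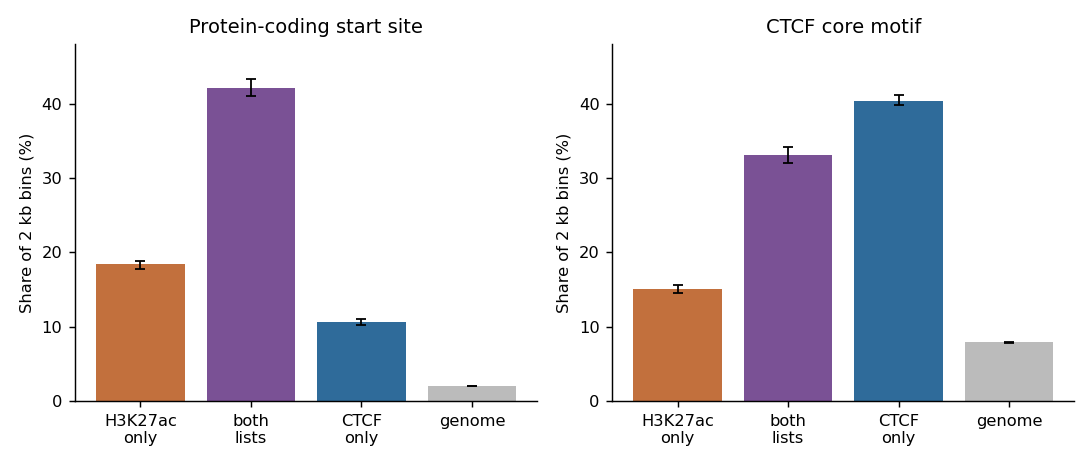
Share of 2 kb bins (%) that hold a protein-coding start site (left) or the CTCF core motif (right), for bins in the H3K27ac list only, in both lists, in the CTCF list only, and for the genome. Bars are shares and error bars 95% Wilson intervals. Bins in both lists have the highest share of start sites (42.1%), and their share with the core (33.1%) lies between those of the other anchor classes.

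The core motif followed the CTCF list. It lay in 40.4% (39.8 to 41.1) of the CTCF-only bins, 33.1% (32.0 to 34.2) of the bins in both lists and 15.1% (14.6 to 15.6) of the H3K27ac-only bins. With another core pattern (CC, any 3 bases, AG, any 2 bases, GGC, any 1 base, C) these shares were 26.3%, 23.7% and 8.25%, in the same order. Start sites and cores were largely found in different bins of the class shared by both lists. There, 31.4% of bins had a start site and no core, 22.3% a core and no start site, 10.7% had both and 35.6% neither. The core was present in 25.5% (24.0 to 27.1) of the shared bins with a start site and in 38.6% (37.1 to 40.1) of those without one. The order was the same in CTCF-only bins, at 27.8% (26.1 to 29.6) with a start site and 41.9% (41.3 to 42.6) without, while in H3K27ac-only bins the intervals overlapped, at 15.6% (14.5 to 16.8) and 14.9% (14.4 to 15.5). In the genome the order was the opposite, at 13.9% of bins with a start site and 7.81% of bins without. A match is a description of sequence and does not show that CTCF was bound there.

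The shared bins without a start site and with the core had more CTCF partners than CTCF-only bins of the same kind. They had a median of 3 CTCF partners, and 47.0% had 4 or more, against 2 partners and 26.1%, and a median CTCF coverage of 2532 against 1520 reads per bin. Their median of 2 H3K27ac partners was above the median of 1 in H3K27ac-only bins with a core and no start site. Shared bins with a start site and no core had a median of 2 partners in each list, and 34.7% had 4 or more H3K27ac partners while 17.2% had 4 or more CTCF partners. Median CTCF coverage differed between the 2 kinds, at 2532 reads per bin with a core and no start site and 856 with a start site and no core.

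Promoter sequences from RefSeq (GRCm38, 250 bases before to 50 after the start) were matched by symbol for 20143 promoters. The core lay in 3.87% (3.61 to 4.14) of all matched promoters. It lay in 8.73% (7.65 to 9.96) of the promoters of genes whose start bins were anchors in the CTCF list only, 6.74% (5.94 to 7.63) with both anchors in 1 start bin, 3.29% (2.75 to 3.93) in the H3K27ac list only and 2.14% (1.89 to 2.43) in neither list. A missing match says only that these letters are not in the window.

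The 5 bins described next ranked highest among the bins of both lists by the smaller of their 2 partner counts. The bin at chr2:152830001-152832000 holds the start site of Bcl2l1, which encodes the anti-apoptotic protein BCL-XL, and its core lies on the reverse strand and so points to the left. All 27 of its H3K27ac partners lay to the left, and so did 22 of its 25 CTCF partners. The highest count in both lists went to the same place, chr2:152696001-152698000 in an exon of Gm26841, with 42 H3K27ac contacts, 29.8 times the count the authors' model predicts, and 211 CTCF contacts, 24.8 times the prediction. At this promoter both lists pointed 1 way along the chromosome.

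At chr15:77336001-77338000, an intergenic bin 30.1 kb from the start of Rbfox2, which encodes a splicing regulator, the cores lie on both strands. It had 15 H3K27ac partners to the left and 13 to the right, and 17 and 6 CTCF partners. It was paired with chr15:77358001-77360000, another of the 5 bins, in both lists, with 82 H3K27ac contacts (18.8 times the prediction) and 250 CTCF contacts (6.88 times). That second bin had no core and had 21 of 23 H3K27ac and 18 of 19 CTCF partners to the left. The partners of these neighbouring bins therefore lay on both sides at the first and almost all on 1 side at the second.

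The start bin of Zbtb45 at chr7:13008001-13010000, which also overlaps an intron of Trim28, had no core. It had 20 H3K27ac partners, 14 of them to the right, and 23 CTCF partners, 12 to the right. Its highest H3K27ac count, 48 contacts at 11.4 times the prediction, was with the start site of Trim28, which encodes a corepressor of KRAB zinc-finger proteins, 16 kb away. Its highest CTCF count, 133 contacts at 10.2 times the prediction, reached an intron of Mzf1. The last of the 5, chr2:18026001-18028000, overlaps an exon of A930004D18Rik and has a forward core. There, 12 of 16 CTCF partners lay to the right, the side the core points to, while 7 of 18 H3K27ac partners did.

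Anchors of 1 list alone could be as well connected. The H3K27ac-only bin with most partners, 42, was chr1:36060001-36062000, intergenic and 7.4 kb from the start of Hs6st1, and 40 of these partners lay to the left. The next, chr12:86916001-86918000, had 39 partners, 34 to the left. The bin at chr6:122702001-122704000, 4.49 kb from the start of Nanog, which encodes a core pluripotency factor, had 36 partners spread over both sides. Its highest count, 111 contacts at 43.8 times the prediction, joined it to an intron of Slc2a3, a glucose transporter gene, 62 kb away. None of these 3 bins held the core.

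The CTCF-only bins with most partners were intergenic at chr19:44582001-44584000 (33 partners), at the start site of Tmem270 at chr5:134906001-134908000 (33) and at the start of the noncoding gene Gm12756 at chr7:34672001-34674000 (32). Their partners lay mainly on 1 side, 29 to the right at the first, 28 to the right at the second and 24 to the left at the third. The chr19 bin held a core on the reverse strand, and 29 of its partners lay on the side the core points away from. The chr5 and chr7 bins held no core.

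Over all bins with the core on 1 strand, CTCF partners lay mostly on the side the core points to. This held for 76.1% (75.5 to 76.6) of 24457 partners of CTCF-only bins and for 67.8% (66.8 to 68.7) of 8862 CTCF partners of bins in both lists. At those shared bins, H3K27ac partners lay on that side in 57.2% (56.0 to 58.4) of 6361 cases, and the share was over 50% on 17 of 20 chromosomes, from 47.4% to 66.9%. At H3K27ac-only bins with a core it was 49.9% (48.7 to 51.0) of 6881 partners, and over 50% on 8 of 20 chromosomes. The lean of H3K27ac partners towards the core's side was thus seen at bins that were also CTCF anchors, and there it was smaller than the lean of their CTCF partners. The 6361 cases include H3K27ac pairs that were CTCF pairs themselves, which H3K27ac-only bins cannot have. The share without them was not computed.

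The side could also be taken from the CTCF partners themselves. At 4493 shared bins the CTCF partners all lay on 1 side, and 68.9% (68.1 to 69.6) of the 13967 H3K27ac partners of these bins lay on that side too. The share lay between 64.4% and 74.2% on each of 20 chromosomes. Without H3K27ac pairs that were CTCF pairs themselves it was 63.5% (62.6 to 64.3). At the 999 bins with 3 or more CTCF partners it was 84.7% (83.4 to 86.0), or 77.5% (75.6 to 79.3) without pairs in both lists.

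The orientation of cores at the 2 ends varied with the kind of pair. Counting pairs with cores on 1 strand only in the 2 kb bin at each end, for both lists, 68.4% (67.1 to 69.7) of 4859 CTCF pairs without an H3K27ac bin were convergent, with the cores pointing at each other. It was 61.1% (59.1 to 63.0) of 2410 CTCF pairs with an H3K27ac bin at 1 end and 61.3% (57.7 to 64.8) of 711 with H3K27ac bins at both ends that were not an H3K27ac pair. The share was 59.6% (54.5 to 64.4) of 371 bin pairs in both lists. Among H3K27ac pairs that joined CTCF bins at both ends without being a CTCF pair it was 45.1% (38.9 to 51.5) of 235, among those with a CTCF bin at 1 end 56.1% (52.7 to 59.4) of 851, and among those without a CTCF bin 44.7% (40.5 to 49.0) of 517. The interval of the H3K27ac pairs with a CTCF bin at 1 end overlapped those of the pairs in both lists and of the CTCF pairs with H3K27ac bins at 1 or both ends. Divergent cores made up 3.95%, 6.39%, 8.72%, 6.47%, 18.3%, 13.6% and 17.8% of these groups, in the order given.

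The bin pairs called with both antibodies were a small share of each list, yet CTCF pairs between H3K27ac anchor bins were listed more often than other pairs of such bins. The 2260 pairs in both lists were 6.23% (5.99 to 6.48) of the H3K27ac pairs and 5.19% (4.98 to 5.40) of the CTCF pairs. The listing rates below enumerate 1378095 pairs of H3K27ac anchor bins, 6 to 1960 kb apart and with a peak at 1 end at least. Of these, 6155 were CTCF pairs. Of those 6155, 36.7% (35.5 to 37.9) were in the H3K27ac list. Of all enumerated pairs 2.63% were, and these had longer spans, with a median of 742 against 74 kb. Within 40 to 80 kb the shares were 36.8% (34.2 to 39.4) and 9.21%. H3K27ac pairs with start sites at both ends were CTCF pairs in 9.97% (9.12 to 10.9) of 4445 cases, pairs with a start site at 1 end in 7.34% (6.88 to 7.82) of 11867, and pairs without a start site in 4.74% (4.45 to 5.04) of 19962. This order was seen under 10 kb, at 10.2%, 4.87% and 1.82%, and at 10 to 20 kb, at 13.8%, 4.70% and 2.03%, and was not seen from 40 kb on, for example at 80 to 160 kb with 8.65%, 12.4% and 12.0%. From the CTCF side, 15.5% of the 1 kb pairs had H3K27ac bins at both ends, 27.8% at 1 end and 56.7% at neither.

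At pairs in both lists a high H3K27ac count did not go with a high CTCF count. The CTCF count of a bin pair is the sum over its listed 1 kb pairs here, and its prediction was summed likewise. Across the 2260 bin pairs, which share anchors and are not independent, Spearman's rho between the H3K27ac and CTCF counts was -0.0183, given as a description. Between the ratios of count to prediction rho was 0.502. Both median ratios rose with span up to 320 kb. Within the 7 span classes the rho of the ratios lay between 0.0574 at 160 to 320 kb and 0.409 at 10 to 20 kb. Median counts were 12 for H3K27ac and, summed in this way, 27 for CTCF, so the 27 cannot be set against the median of 14 per 1 kb pair in the CTCF list. With span, the H3K27ac median fell from 22 under 10 kb to 9 at 160 to 320 kb, while the CTCF median stayed between 23 and 31 up to 320 kb.

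The next pairs had the highest H3K27ac counts of those in both lists. The first, chr17:39842001-39844000 with chr17:39848001-39850000, lies at the noncoding genes Gm26917 and AY036118, with 558 H3K27ac and 470 CTCF contacts. Its bins had an H3K27ac coverage of 34213 and 21464 reads, and its ratios to the prediction were 7.01 and 1.65, the second from 285 predicted CTCF contacts. The second, chr6:128760001-128762000 with chr6:128798001-128800000, had 159 and 61 contacts and an H3K27ac ratio of 111. The bins of this second pair shared 29.8% of their 25-base words, and the windows around their cores were the same 30 bases at both ends:
chr6:128761026-128761055, reverse strand, left end: ctggggtgaCCGGCAGGGGGCgcggggcga
chr6:128799770-128799799, reverse strand, right end: ctggggtgaCCGGCAGGGGGCgcggggcga
The last joined the start sites of Ywhag, which encodes a 14-3-3 protein, at chr5:135934001-135936000 and Ssc4d at chr5:135962001-135964000. It had 121 H3K27ac and 25 CTCF contacts, at 32.6 and 6.69 times the prediction.

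The main question of position was whether H3K27ac pairs stay within CTCF pairs or cross them. A pair was inside when both ends lay within a CTCF pair, and crossing when exactly 1 end lay strictly between the ends of a CTCF pair and the other strictly outside. Since CTCF pairs overlap, many pairs were inside 1 CTCF pair and crossed another. Listed pairs were set against all enumerated pairs of H3K27ac anchor bins of like span, with a peak at 1 end at least, that were not listed. At 40 to 80 kb, 26.8% (25.7 to 27.9) of 5970 listed pairs were inside and crossed none, against 12.7% (12.4 to 13.0) of 58883 pairs not listed. Crossing, inside or not, held for 59.8% (58.6 to 61.1) of listed pairs and 83.9% (83.6 to 84.2) of the others. At 10 to 20 kb the crossing shares were 26.8% and 46.9%, and at 160 to 320 kb 78.6% and 98.3%. With only the CTCF pairs in the upper quartile of contact count, the crossing shares at 40 to 80 kb were 36.1% (34.9 to 37.4) of listed pairs and 61.5% (61.1 to 61.9) of the others. How many H3K27ac pairs crossed thus depended on which CTCF pairs were counted, and in both settings the share was lower among listed pairs.

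Read as a listing rate, 2.63% of the 1378095 enumerated pairs of H3K27ac anchor bins up to 1960 kb apart were listed. The rate fell with span, from 45.1% under 10 kb through 29.4% at 10 to 20 kb, 17.5% at 20 to 40 kb, 9.21% at 40 to 80 kb, 4.57% at 80 to 160 kb and 1.23% at 160 to 320 kb to 0.0632% beyond. Within a span class it depended on the position relative to CTCF pairs. In the class of 40 to 80 kb, 36.8% (34.2 to 39.4) of the bin pairs that were CTCF pairs were listed, 17.6% (16.8 to 18.4) of those inside and not crossing, 6.90% (6.67 to 7.13) of those inside and crossing and 5.32% (4.74 to 5.97) of those crossing and not inside. At 160 to 320 kb these rates were 20.7% (18.3 to 23.3), 10.7% (8.85 to 12.8), 1.31% (1.23 to 1.39) and 0.588% (0.530 to 0.651). Under 40 kb the intervals of both crossing classes overlapped, with rates of 12.2% (11.8 to 12.6) and 11.9% (10.5 to 13.5) at 20 to 40 kb.

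**Figure D2:**
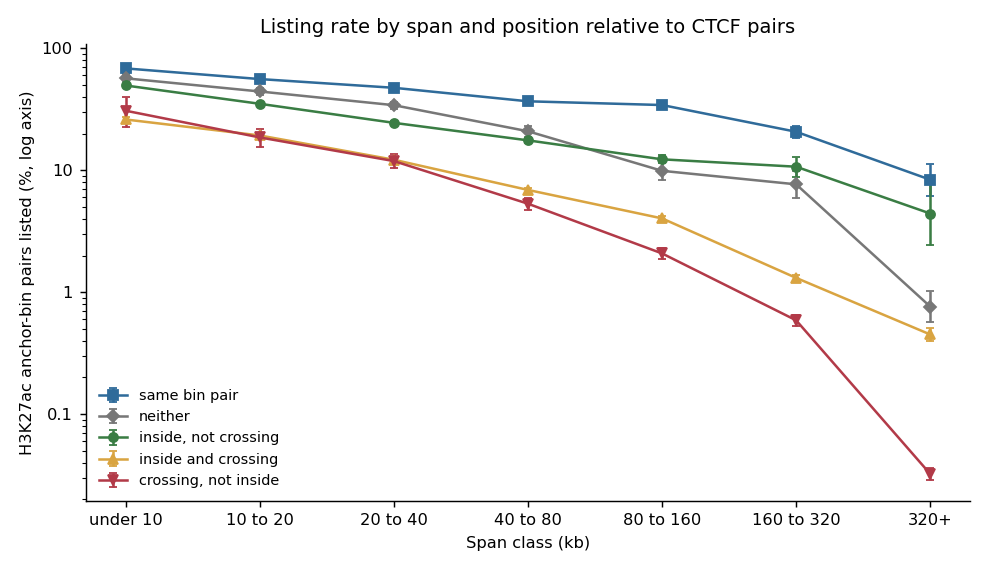
Percent of pairs of H3K27ac anchor bins that were listed (log axis) by span class in kb, for 5 positions relative to CTCF pairs. Points are rates and error bars 95% Wilson intervals. Pairs that are CTCF pairs lie highest in every class, and both classes that cross a CTCF pair lie lowest in every class.

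Pairs that were neither inside a CTCF pair nor crossing one had higher listing rates than pairs inside under 80 kb and lower ones beyond. Their rate was 20.9% (18.9 to 23.1) at 40 to 80 kb, above that inside, and 9.90% (8.37 to 11.7) at 80 to 160 kb, against 12.3% (11.4 to 13.3) inside. At 160 to 320 kb it was 7.67% (5.98 to 9.79) against 10.7% (8.85 to 12.8), and at 320 kb or more 0.762% (0.566 to 1.02) against 4.42% (2.42 to 7.95), where the median spans were 1174 kb and 469 kb. Matched on exact span under 320 kb, the rate inside over that for neither was 0.823 (0.793 to 0.854), and 0.915 (0.885 to 0.947) when the product of the bins' coverages was matched too, in 10 classes. Among crossing pairs, those also inside a CTCF pair were listed 1.46 (1.38 to 1.54) times as often as those not inside at matched span, and 1.52 (1.45 to 1.60) times with coverage matched too.

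Matched on exact span under 320 kb, pairs inside and not crossing were listed 2.82 times (2.64 to 3.00) as often as pairs crossing and not inside. Against pairs with any crossing the ratio was 2.01 (1.96 to 2.06). Matching on coverage classes as well gave 2.91 (2.74 to 3.09) and 2.03 (1.99 to 2.08). With no CTCF-list bin at either end the ratio against any crossing was 2.15 (2.08 to 2.22), with 1 such end 2.08 (2.01 to 2.16) and with both 1.93 (1.78 to 2.10). A bin outside the CTCF list was not called at this depth, and is not shown to lack a CTCF anchor. With start sites at both ends the ratio against any crossing was 1.76 (1.66 to 1.87), with 1 start site 2.19 (2.10 to 2.28) and with none 2.03 (1.97 to 2.09). Bin pairs that were themselves CTCF pairs were listed 1.96 times (1.89 to 2.04) as often as those inside, or 1.76 times (1.70 to 1.81) with coverage matched. Each anchor bin entered this enumeration through at least 1 listed pair of its own. Among pairs whose ends each had another listed partner, the ratio against crossing and not inside was 2.80 (2.58 to 3.03).

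Every one of 20 chromosomes gave a ratio above 1. Against any crossing it ranged from 1.45 (1.28 to 1.64) on chromosome 12 to 2.49 (1.92 to 3.23) on the X chromosome. Against crossing and not inside it ranged from 1.86 (1.27 to 2.74) on chromosome 13 to 7.77 (3.83 to 15.8) on chromosome 19, with wider intervals.

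**Figure D3:**
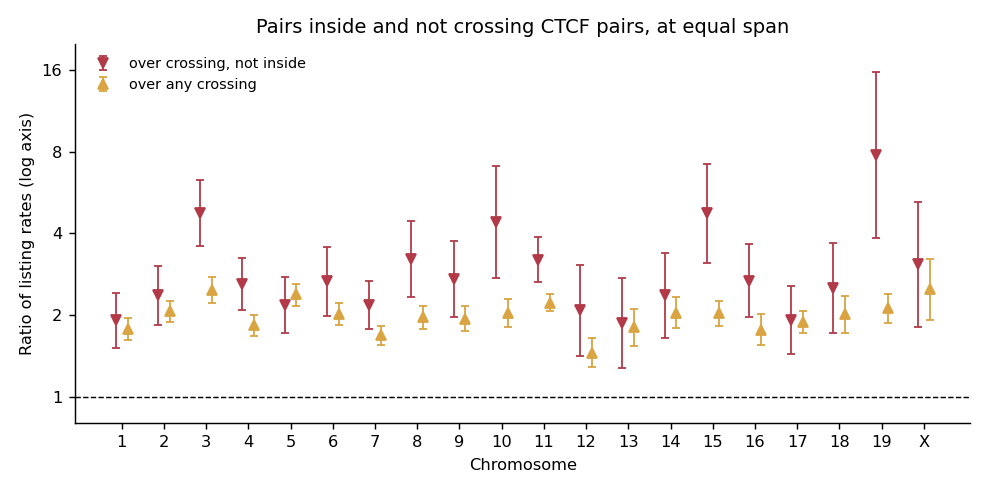
Ratio of the listing rate of H3K27ac anchor-bin pairs inside and not crossing CTCF pairs to that of crossing pairs, matched on exact span under 320 kb (log axis), for each of 20 chromosomes. Points are ratios, bars 95% intervals from counting error, and the dashed line marks 1. All points lie above 1.

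The rate also fell with the number of CTCF pairs crossed. At 40 to 80 kb it was 18.1% (17.3 to 18.8) with none crossed, 11.2% (10.6 to 11.8) with 1 to 2, 7.58% (7.23 to 7.95) with 3 to 9 and 3.51% (3.27 to 3.77) with 10 or more. The same order was found in each span class under 320 kb. At 80 to 160 kb the 4 rates were 11.8%, 9.59%, 5.34% and 2.06%. A crossed CTCF pair always has an anchor between the ends of the H3K27ac pair. Pairs that had a CTCF anchor between their ends and crossed nothing were listed at 14.9% (13.0 to 17.0) at 40 to 80 kb, against 18.5% (17.7 to 19.3) with no anchor between and 6.74% (6.53 to 6.96) of crossing pairs. At 80 to 160 kb these were 13.0% (11.0 to 15.3), 11.5% (10.6 to 12.5) and 3.62% (3.50 to 3.74), and in both classes the crossing pairs had by far the lowest rate.

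The pairs with the highest counts inside CTCF pairs were short. Among pairs inside and not crossing, the highest were intergenic pairs on chromosome 15 (37072001 to 37074000 with 37080001 to 37082000, 428 contacts), chromosome 5 (144668001 to 144670000 with 144678001 to 144680000, 356 contacts) and chromosome 8 (114390001 to 114392000 with 114398001 to 114400000, 320 contacts). Their ratios to the prediction were 57.4, 80.7 and 54.8. The bins of each of these 3 pairs shared 25-base words, at 11.4%, 6.98% and 10.6% of the words.

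Of the pairs crossing and not inside, the highest count, 94 contacts at 6.08 times the prediction, was between an intronic bin of Sept1, a septin gene, at chr7:127224001-127226000 and the start bin of the zinc-finger gene Zfp553 at chr7:127232001-127234000. It crossed 11 CTCF pairs over a span of 8 kb, and its bins shared no 25-base words. The next joined chr8:71268001-71270000, in an exon of Haus8, to the intergenic bin chr8:71744001-71746000 over 476 kb with 81 contacts, and its bins shared 30.6% of their words. The last joined introns of Bcat1 and Lmntd1 at chr6:145070001-145072000 and chr6:145550001-145552000 over 480.0 kb with 75 contacts, crossed 5 CTCF pairs and shared no words.

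The CTCF pairs with the highest counts, apart from the chromosome 17 pair above, had H3K27ac bins at both ends. One joined intergenic bins at chr15:101988001-101989000 and chr15:102065001-102066000, 15.5 kb from the start of Krt8, a keratin gene of simple epithelia, and 7.77 kb from that of Eif4b, a translation initiation factor gene. It had 433 contacts at 38.1 times the prediction, and the cores printed above lie on the reverse strand at both ends. The other joined an intron of Morn1 at chr4:155095001-155096000 to the start bin of Faap20, a Fanconi anaemia pathway gene, at chr4:155249001-155250000. It had 402 contacts at 51.7 times the prediction, with a forward core in the left 1 kb anchor. The reverse core printed above for its right end, and a further reverse core at the left end, lie in the 2 kb bins but outside the 1 kb anchors.

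The ratio of contact count to the count predicted with coverage bias was higher in the H3K27ac list than in the CTCF list at equal span. At 40 to 80 kb the median was 6.24 (interval of the median 6.20 to 6.29) for H3K27ac and 4.02 (3.98 to 4.07) for CTCF, with quartiles of 5.46 and 7.74 against 3.28 and 5.29. Under 10 kb the medians were 3.93 and 2.71, and at 320 kb or more 7.38 and 5.97. The lists differ in bin size, depth and the smallest ratio that could be called. At 40 to 80 kb the smallest listed ratio was 3.85 for H3K27ac, close to the CTCF median, and 2.05 for CTCF, and the predicted count had a median of 1.76 and 4.47 contacts. The higher H3K27ac ratios therefore cannot be told apart from the higher ratio needed to be listed.

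**Figure D4:**
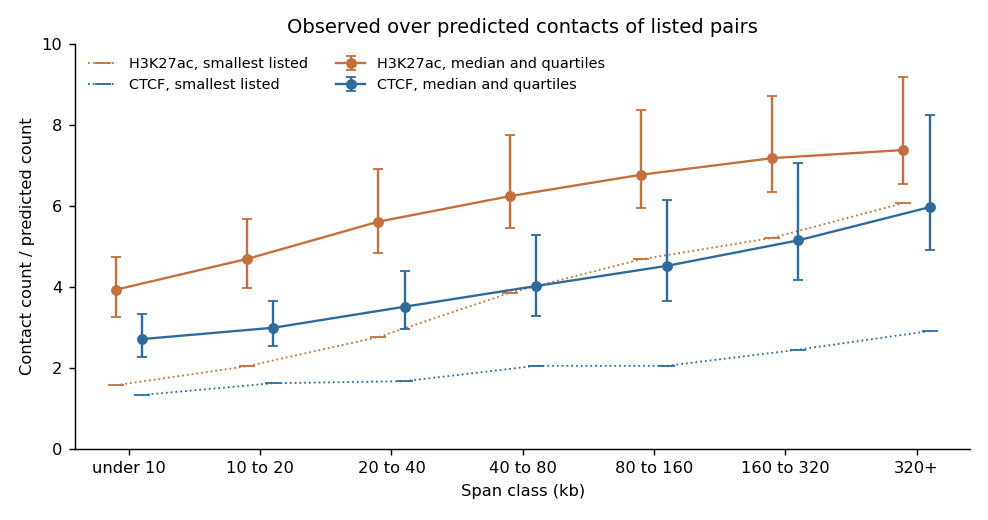
Contact count divided by the predicted count of listed pairs, by span class in kb, for the H3K27ac and CTCF lists. Points are medians, bars the quartiles, and dotted lines with dashes the smallest listed ratio. Both medians and both floors rise with span, and from 40 kb on the H3K27ac floor is close to the CTCF median or slightly above it.

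Within the H3K27ac list, bin size and depth are shared, and the ratio differed little between positions. At 40 to 80 kb the median was 6.94 (6.70 to 7.13) for pairs that were CTCF pairs, 6.41 (6.31 to 6.51) for pairs inside and not crossing, 6.10 (6.04 to 6.16) for pairs inside and crossing, 6.08 (5.98 to 6.32) for pairs crossing and not inside, and 6.42 (6.20 to 6.63) for neither. These medians lay within 1 of each other, while the listing rates of the same positions at this span ran from 5.32% to 36.8%. Pairs under the smallest ratio that could be called do not enter this comparison. Median coverage was lower for listed pairs inside and not crossing, at 2808 reads per bin, than for those crossing and not inside, at 3207. Over all enumerated pairs of this span, listed or not, these medians were 1648 and 1646, so the gap was not seen there. Pairs with start sites at both ends had a median of 6.65 (6.53 to 6.83), above 6.10 (6.04 to 6.19) with 1 and 6.23 (6.16 to 6.29) with none. They were also highest in each shorter span class. At 80 to 160 kb the intervals overlapped, at 6.92 (6.74 to 7.12) with both and 6.88 (6.78 to 6.96) with none. At 320 kb or more the medians were 7.21 (6.96 to 7.64) and 7.46 (7.31 to 7.74).

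Within the CTCF list, pairs without H3K27ac bins had the higher ratios over 40 kb. At 80 to 160 kb the median was 4.75 (4.70 to 4.81) with no H3K27ac bin, 4.14 (4.09 to 4.19) with 1 and 4.53 (4.44 to 4.66) with both. At 320 kb or more it was 6.15 (6.08 to 6.22), 5.46 (5.38 to 5.58) and 5.30 (5.15 to 5.51). Median coverage at 320 kb or more was 2081 reads per bin without H3K27ac bins and 3700 with both. In the order of the ratios, median predicted counts there were 1.6, 1.9 and 2.12, and the smallest listed ratios 3.14, 2.97 and 2.91. Whether the higher ratios follow from a higher ratio needed to be listed was not tested.

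Genes were placed by whether a start bin was an anchor. Of 21851 protein-coding genes, 14.6% had a start bin in both lists, 0.247% had start bins in both lists but different bins, 16.5% were in the H3K27ac list only, 10.9% in the CTCF list only and 57.8% in neither. The gene lists below were chosen with earlier results of these data known, and their counts are descriptions. As a check of the cell type, 18 of 20 pluripotency genes had a start bin in the H3K27ac list, against 2 of 10 markers of fibroblasts and other differentiated cells and 31.3% of all genes. Of all genes, 25.7% had a start bin in the CTCF list, and of the 6840 genes with an H3K27ac anchor, 47.3% did.

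**Figure D5:**
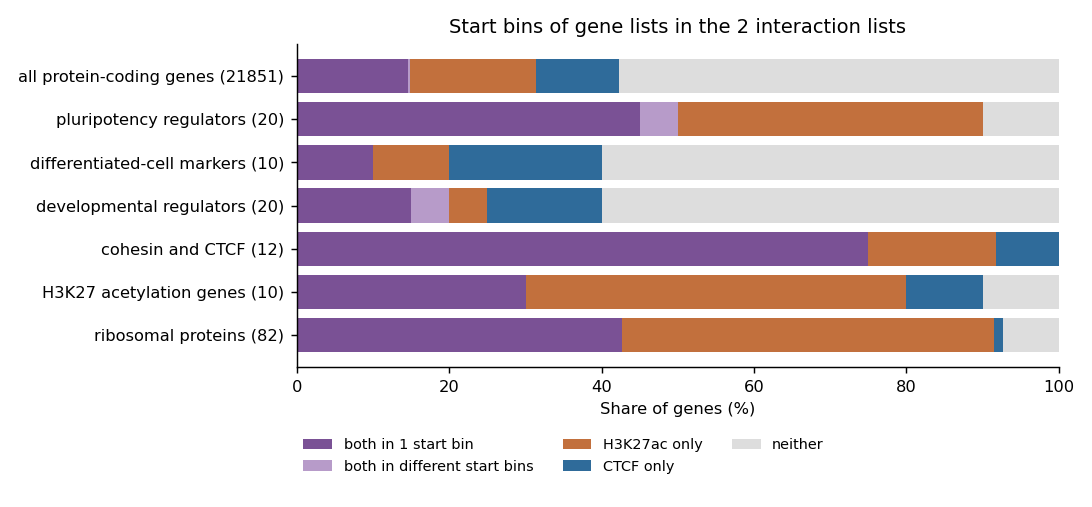
Share of genes (%) in each list by the class of their start bins: both lists in 1 bin, both lists in different bins, H3K27ac only, CTCF only, or neither. The number of genes is in parentheses. Cohesin and CTCF genes have the largest share in both lists, and the lists of differentiated markers and of developmental regulators each have 60% in neither, against 57.8% of all protein-coding genes.

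Pluripotency genes were anchors of H3K27ac pairs, and 10 of the 18 that were such anchors were also in the CTCF list (55.6%), 9 of them in the same start bin, against 47.3% of all H3K27ac-anchored genes. Zfp57, which encodes a zinc-finger protein that protects imprints, had 30 H3K27ac pairs with 670 contacts and none in the CTCF list, and 25 of the 30 were inside 1 CTCF pair and crossed another. Their median span was 31 kb, and of all listed pairs at 20 to 40 kb, 42% were inside and crossing. Tbx3, a T-box factor gene of naive pluripotency, had 21 H3K27ac pairs, 15 of them inside and not crossing, and its start bin at chr5:119670001-119672000 had its highest count, 71 contacts, with an exon of Tbx3 10 kb away, which was also a CTCF pair of 33 contacts. Nanog had 21 H3K27ac pairs with 397 contacts, 14 inside and crossing and 4 crossing and not inside. Nanog thus had 18 of its 21 pairs in the crossing classes, while Tbx3 had 4 of 21. Of all listed H3K27ac pairs 42.6% crossed a CTCF pair, and of those at 40 to 80 kb, the span class that holds the median of 44 kb of both genes, 59.8%.

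The Nanog start bin at chr6:122706001-122708000 had its highest H3K27ac count, 42 contacts at 17.9 times the prediction, with an intron of Slc2a3 58 kb to the right. Its highest CTCF count, 38 contacts, went 38 kb the other way. Esrrb, an orphan nuclear receptor gene, has 3 start bins, and its 15 H3K27ac pairs spanned at most 38 kb. The highest, 66 contacts at 17.3 times the prediction, joined its start bin at chr12:86470001-86472000 to an intron of Esrrb. Pou5f1, Klf2 and Zfp42 were anchors in both lists, with 12, 12 and 14 H3K27ac partners and 1, 2 and 2 CTCF partners. Sox2, Klf4, Tdgf1, Tfcp2l1, Prdm14, Sall4 and Dppa3 were H3K27ac anchors without a CTCF anchor at the start, with 2 (Dppa3, Sall4) to 16 (Sox2) H3K27ac partners. Lin28a and Nr0b1 were in neither list.

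Genes of cohesin and CTCF themselves were anchors in both lists in 9 of 12 cases, always in 1 start bin, against 14.6% of all genes. These 9 were 81.8% of the 11 with an H3K27ac anchor, against 47.3% of all such genes. Stag1, which encodes a cohesin subunit, had 9 H3K27ac pairs, all to the left, of which 4 were also CTCF pairs and 5 were inside and not crossing. It had 10 CTCF pairs, 7 of them to the left, with the highest count, 44 contacts, at the start site of Nck1. At Ctcf, 2 of 5 H3K27ac pairs were CTCF pairs, and both lists had their highest count with the same bin in an exon of Ripor1 14 kb away, 18 H3K27ac and 31 CTCF contacts. Wapl, which encodes the cohesin release factor, had 5 and 4 pairs, none of them in both lists. Pds5a, a regulator of cohesin, had 3 of 4 H3K27ac pairs crossing and not inside. The median spans of the H3K27ac pairs of Stag1, Ctcf and Pds5a lay at 40 to 80 kb. Of all listed pairs in that class 8.22% were CTCF pairs, 26.8% inside and not crossing and 4.56% crossing and not inside. Rad21 and Smc1a were in the H3K27ac list only and Nipbl, the cohesin loader gene, in the CTCF list only.

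Ribosomal protein genes were H3K27ac anchors in 75 of 82 cases (91.5%, against 31.3% of all genes) and CTCF anchors in 36 of 82 (43.9%, against 25.7%). The list was made by gene name and so also holds Rps19bp1 (H3K27ac list only), whose name marks a binding protein of Rps19. Of the 75 that were H3K27ac anchors, 46.7% were also CTCF anchors, next to 47.3% of all H3K27ac-anchored genes. Rpl7l1, a paralogue of Rpl7 that the list's name rule takes in, had 15 of its 16 H3K27ac pairs and all 7 of its CTCF pairs to the right, and 13 of the H3K27ac pairs were inside and not crossing. Rpl11 had 9 H3K27ac and 9 CTCF pairs, with 4 in both lists. The median spans of the H3K27ac pairs of both genes lay at 40 to 80 kb. In that class 26.8% of all listed pairs were inside and not crossing, and 8.22% were CTCF pairs.

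Of the writers, readers and erasers of H3K27 acetylation, 8 of 10 were H3K27ac anchors, against 31.3% of all genes, and 4 of 10 CTCF anchors, against 25.7%. Of the 8 H3K27ac anchors, 3 were also CTCF anchors (37.5%, against 47.3%). Brd2, a bromodomain reader gene, had 16 H3K27ac pairs, 14 of which were in the crossing classes. Of all listed pairs at 80 to 160 kb, the span class that holds its median of 91 kb, 73.3% crossed a CTCF pair. For Brd2 both lists gave their highest count with the start bin of H2-DMa, 31 H3K27ac and 47 CTCF contacts. Ep300, an acetyltransferase gene, had 6 H3K27ac pairs, all to the left, and the highest, 40 contacts at 26.6 times the prediction, joined it to the start of Rbx1 118 kb away across a CTCF pair. The 7 pairs of Brd3 were all inside and not crossing, with the highest count at the start of Wdr5. Their median span was 40 kb, and of all listed pairs at 40 to 80 kb, 26.8% were inside and not crossing. Kat2a had 3 H3K27ac pairs, all inside and crossing, with a median span of 94 kb. Of all listed pairs at 80 to 160 kb, 64.5% were inside and crossing. Crebbp was in neither list.

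Developmental regulators were H3K27ac anchors in 5 of 20 cases (25%) and CTCF anchors in 7 of 20 (35%), against 31.3% and 25.7% of all genes. Of the 5 H3K27ac anchors, 4 were also CTCF anchors (80%, against 47.3% of all H3K27ac-anchored genes). Otx2, a homeobox gene of early epiblast and brain, had 6 H3K27ac pairs within 18 kb and no CTCF pair. Eomes, a T-box gene of mesendoderm, had 1 H3K27ac pair of 9 contacts and 4 CTCF pairs, the highest with 35 contacts at the start of Azi2 439 kb away. Gsc and Lhx2 each had 1 H3K27ac pair and 3 CTCF pairs. Among the differentiated-cell markers, Col1a1, a collagen gene, had 1 H3K27ac pair of 9 contacts, which was also a CTCF pair, and 19 CTCF pairs with 649 contacts. Pdgfra had 6 CTCF pairs and no H3K27ac pair. Vim was in the H3K27ac list only and Thy1 in the CTCF list only.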

How the data were processed

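HiChIP interactions of untreated H3K27ac and CTCF libraries, 2 each, were compared from 1 pooled list per antibody. Per the file headers, each deposited row has a contact count and read counts per bin (coverage), not normalised, an expected count predicted by the authors' model from span and coverage bias, a bias ratio per bin, and a p-value and q-value. The deposited lists hold q-values under 0.05. Trim Galore, BWA, MACS2, deepTools and build mm10 are named in the submitters' processing notes. The interaction caller's settings, read filters and treatment of multiply mapped reads are not given in the sources used here.

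CTCF 1 kb bins were assigned to 2 kb bins by start. GRCm38 sequence and GENCODE M21 were used, and 0 anchors lay beyond a chromosome end. Listing rates came from a full enumeration of anchor-bin pairs with a peak at 1 end at least, between the shortest and the longest listed span. Matched ratios are Mantel-Haenszel ratios over exact spans. Code was tested on simulated data. Python 3.11.15, scipy 1.17.1 and pandas 2.3.3 were used. Named pairs and bins had the highest counts or most partners of their class (for bins of both lists, by the smaller of the 2 partner counts), pairs within 2 bins at both ends of a named one were passed over, and up to 4 genes per gene list with most partners were described in full. Some genes that this rule names are not reported here. Chromosome 18 was left out of named items. Members, lists and rules were chosen with earlier results of these data known. There were 35 planned and 8 added alternatives. Pairs of the IAA and RAD21 libraries were not analysed here.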

Additional observations from a re-analysis of the deposited data

How the results depend on the processing

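No paired analysis was possible because each deposited list pools the replicates of its antibody, which also left no replicate to omit. A reversal was defined only for the ratio of listing rates inside against crossing, rho at shared pairs and the same-side share. None of these reversed. The other recomputed values were the anchor overlap, start sites and cores by bin class, crossing and the median ratios to prediction. They had no reference value to reverse about and could only lie within or outside the counting interval. No other result was recomputed. Of 47 recomputed main values, 17 lay within the counting interval of the value reported and 30 outside it. Of the 17, 2 could not move: crossing under another definition of inside, and the CTCF median with peaks at both ends, which all CTCF pairs have. With q of 0.01 or less in both lists, the share of H3K27ac bins that are CTCF anchors was 23%, start sites in shared bins 43.4%, crossing at 40 to 80 kb 52.1% (78.0% of pairs not listed), the listing ratio 2.60, the median ratios to prediction 7.02 and 4.47, and the same-side share 70.8%. With at least 10 contacts these were 22.9%, 43.5%, 55.7% (81.3%), 2.41, 6.90 for H3K27ac and 67.8%, and rho of the ratios was 0.601. The anchor share was 40.5% with neighbouring bins, 27.3% for peak bins and, in an alternative chosen after seeing the data, 19.5% without start sites. Start sites in shared bins were 54.0% with neighbouring bins and 46.5% with all gene types, and the other core pattern was in 23.7%. With the CTCF pairs in the upper quartile of count (22 or more), 36.1% of listed and 61.5% of other pairs crossed. The listing ratio was 3.77 between the coverage quartiles and, in alternatives chosen after seeing the data, 3.03 over 7 span classes and 2.01 against any crossing. Ratios to a prediction without coverage bias were 18.7 and 10.5, and 6.43 for H3K27ac with peaks at both ends. The same-side share was 63.5% without CTCF pairs, 84.7% with 3 or more CTCF partners and, in an alternative also chosen after seeing the data, 77.5% with both. Listed pairs had a median count of 13 (H3K27ac) and 14 (CTCF) contacts, and how far depth limited the lists at each span was not tested.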

Other observations

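The H3K27ac pairs with the largest ratios to prediction included many whose bins resemble each other in sequence. Bins sharing 5% or more of their 25-base words made up 18.2% (13.9 to 23.5) of the 247 H3K27ac pairs at 20 or more times the prediction, 2.32% (1.77 to 3.04) of those at 10 to 20 times and 0.192% (0.151 to 0.245) of those under 10 times. In the CTCF list the shares were 0.605% (0.206 to 1.76) of 496 pairs, 0.106% and 0.0463%. Such pairs were 161 of the 36274 H3K27ac pairs, and without them the listing ratio stayed at 2.82 and the median ratio to prediction at 40 to 80 kb was 6.23. At 3 named H3K27ac pairs inside CTCF pairs, the contact count came to 22.0%, 13.9% and 25.8% of the coverage of the less covered bin, against 2.08% at the Ywhag and Ssc4d pair and 1.49% at the Zfp553 pair. The pair of Bcat1 and Lmntd1, whose bins shared no words, reached 12.7%. Whether shared sequence plays a part in these counts was not tested.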
